A study of Mus musculus with 9 samples.

Results

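The collagen chains were taken as every gene whose symbol has the form Col, a type number, a and a chain number, and whose probe sets the annotation table pairs with that gene alone. The rule gave 47 of the 33794 probe sets and 44 of the 22180 genes compared, from 27 collagen types, of which 7 are represented by several chains. Col1a2, Col5a1 and Col6a1 have 2 probe sets each, which were averaged, and the other 41 genes have 1. By class they comprise 11 fibrillar chains, 6 chains of basement membrane type IV, 6 chains of type VI beaded filaments, 9 fibril-associated chains, 3 network-forming chains of types VIII and X, 4 transmembrane chains, 2 multiplexins, 1 anchoring fibril chain and 2 chains of other types.

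A collagen is a triple helix of 3 chains, which can be copies of 1 gene's product or the products of several genes. Fibrillar types I, III and V build the fibrils of bone, skin and tendon, with types II and XI in cartilage. Type IV forms the sheet of basement membranes, type VI forms beaded microfibrils around cells, and the fibril-associated types sit on the surface of fibrils. Osteoblasts are known for secreting type I collagen, the main protein of bone matrix, which needs ascorbate for the hydroxylation of its prolines and lysines, and hypertrophic chondrocytes are known for type X.

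The cells were MSC2, a stromal line that is 1 clone. It was derived from marrow of C57BL/6 mice 6 weeks of age. Total RNA from 3 samples of each of 3 groups was put on 9 biotin-labelled arrays, with an average RNA integrity number of 9.9, and the series text describes the replicates as independent. Undifferentiated cells were kept in alpha-MEM lacking ascorbic acid, with 10% serum. The other groups were confluent cells treated for 14 days or 28 days to make osteoblasts, in DMEM containing 10% serum, sodium pyruvate at 1 mM, dexamethasone at 0.1 µM, ascorbic acid-2-phosphate at 0.2 mM and beta-glycerophosphate at 10 mM. Medium, ascorbate, confluence, time in culture and induction cannot be told apart, because no untreated culture of the same age was measured.

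The values are log2 signals centred on the median of each probe set over the 9 arrays, so that 0 is a probe set's own middle value. They show differences between arrays and no level, and the signal of 1 collagen cannot be set against that of another. The direction is not written with the values, and a higher value is taken as more RNA. Since levels are missing, the labelled cell type could not be checked by the presence of its markers, only by their change. A gene was called when its adjusted p in limma's moderated test, over all 22180 genes, was under 0.05. Of 12 osteoblast markers 3 were called higher at 14 days and 4 at 28 days, with none lower. These are 25% and 33.3% of the list, beside 35.7% and 39.9% of all genes called in either direction. Counting both directions, the list was thus called no more often than all genes. Called higher were 18.2% and 20.4% of all genes, smaller shares than in the list, and the difference was not tested. Among the markers called at 28 days were Omd, osteomodulin, higher by 1.51 (adjusted p = 1.22e-06), and Pth1r, the parathyroid hormone receptor, higher by 1.03 (adjusted p = 2.01e-05). Alpl was higher by 0.50 at 14 days and by 0.46 at 28 days (adjusted p = 0.000896 and 0.0013). Mepe was higher by 0.35 at 28 days (adjusted p = 0.0148). Sp7, Ibsp, Bglap and Dmp1 were among those not called at either time.

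Collagen genes of 1 class often moved in opposite directions. At 14 days of induction 18 of the 44 collagen genes were called against undifferentiated cells, 10 higher and 8 lower, which is 40.9% of them against 35.7% of all genes (18.2% higher and 17.5% lower). At 28 days 20 were called, 12 higher and 8 lower, or 45.5% against 39.9% of all genes (20.4% higher and 19.5% lower). From 14 to 28 days only 6 were called, 4 higher and 2 lower at 28 days, or 13.6% against 7.39% of all genes (2.72% higher and 4.67% lower). The shares of collagens called against undifferentiated cells thus lay close to the background, and both sets share the undifferentiated arrays. Over all 3 groups 21 of the 44 passed limma's F test, against 39.2% of all genes. The median change of the 44 was 0.04 at 14 days and 0.07 at 28 days on the log2 scale, beside 0.0048 and 0.02 for all genes. The median size of change, with the sign left out, was 0.14 at 14 days and 0.18 at 28 days, beside 0.10 and 0.12 for all genes. In bulk RNA a lower signal from fewer cells of a type and from less RNA per cell cannot be told apart.

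**Figure D1:**
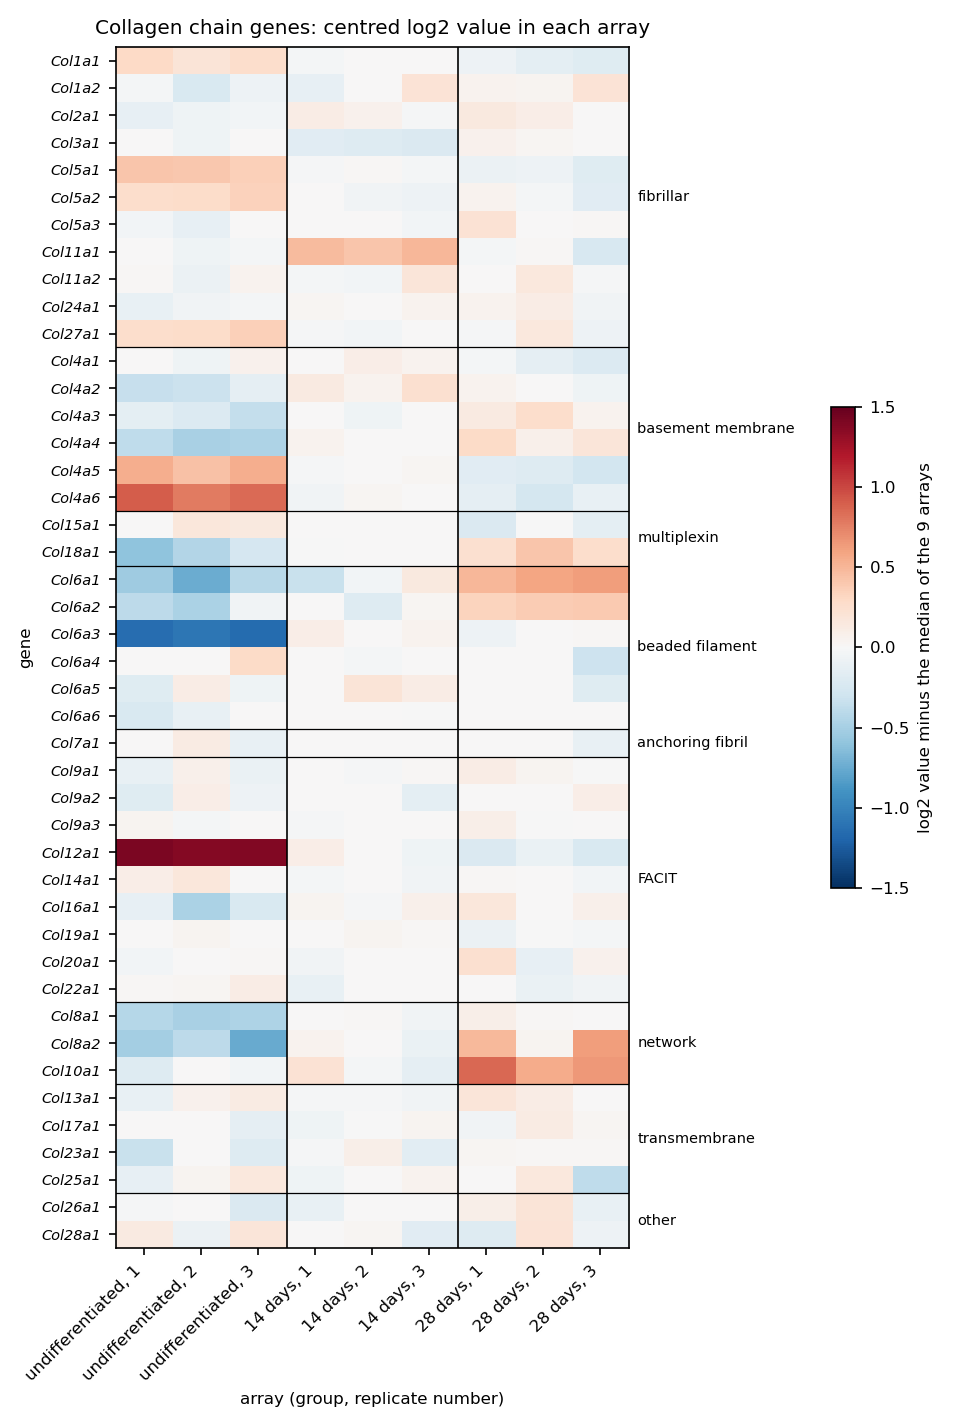
Heat map of the median-centred log2 signal of the 44 collagen genes (rows, grouped by class) on the 9 arrays (columns, ordered undifferentiated, 14 days and 28 days), with red above and blue below each gene's median. Col12a1 and Col4a6 stand above their medians on the 3 undifferentiated arrays, and Col6a3 stands below its median there.

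Changes of 2-fold or more that were called were few. Such changes were seen in Col12a1 and Col6a3 at both times and in Col6a1 and Col4a6 at 28 days, against 4.71% of all genes at 14 days and 6.19% at 28 days. Between 28 and 14 days no collagen, and 0.108% of all genes, had such a change. Among all 22180 genes, 226 had a lower log2 change than Col12a1 at 14 days and 280 at 28 days. For Col6a3, 433 genes had a higher log2 change at 14 days and 586 at 28 days. The groups did not overlap for 21 of the 44 collagens at 14 days against undifferentiated cells (44.8% of all genes), for 25 at 28 days (46.6% of all genes) and for 19 between 28 and 14 days (24.4% of all genes).

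A second quantile normalization of the deposited values moved several sizes and calls, while the directions of the called collagens stayed. It gives every array the same distribution and was applied to values already centred on each probe set's median. Before it, 15.2% to 17.0% of values were exactly 0 on undifferentiated arrays, 23.6% to 28.1% at 14 days and 18.2% to 20.1% at 28 days. Whether this difference moved the sizes was not tested. The second normalization left 13 collagens called at 14 days (5 higher and 8 lower), 17 at 28 days and 7 between 28 and 14 days. Not called under it were Col4a3, Col6a1, Col8a2, Col16a1 and Col18a1 at 14 days (adjusted p from 0.0585 to 0.521) and Col2a1, Col4a2 and Col27a1 at 28 days (adjusted p from 0.117 to 0.356). Among those still called it gave smaller log2 changes, by over 1.5 times, for Col12a1 (-0.71 at 14 days and -0.95 at 28 days), Col6a3 (0.69 and 0.58) and Col8a1 (0.26 and 0.31). The same held at 14 days for Col4a6 (-0.47), Col4a5 (-0.28), Col4a4 (0.29) and Col5a1 (-0.24). It gave larger ones for Col11a1 (1.12 at 14 days, and -1.20 between 28 and 14 days), for Col3a1 (-0.39 at 14 days, and 0.43 between 28 and 14 days) and for Col6a2 between 28 and 14 days (0.68).

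Of the 11 fibrillar chains, 1 was higher and 5 were lower at 14 days, and 1 was higher and 4 were lower at 28 days. The class median change was 0.04 at 14 days and 0.05 at 28 days, close to that of all genes. Col1a1, Col5a1, Col5a2 and Col27a1 were lower at both times and Col3a1 at 14 days, while Col11a1 was higher at 14 days and Col2a1 at 28 days. Chains of 1 type did not all move alike, as Col1a2 of type I and Col5a3 of type V were called in no comparison.

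Col1a1 encodes the alpha 1 chain of type I collagen, of which the trimer holds more copies than of alpha 2. It was at 0.30, 0.20 and 0.27 in undifferentiated cells, at -0.03, 0.00 and 0.00 after 14 days and at -0.08, -0.14 and -0.18 after 28 days. Every undifferentiated array lay above every induced one. Its log2 change was -0.26 at 14 days (SE 0.04, adjusted p = 0.000708) and -0.39 at 28 days (adjusted p = 3.42e-05). The type I alpha 2 chain, Col1a2, was at -0.03, -0.23 and -0.08 in undifferentiated cells, at -0.12, 0.01 and 0.21 after 14 days and at 0.05, 0.04 and 0.20 after 28 days. It was not called: its change was 0.14 at 14 days (SE 0.09, adjusted p = 0.257) and 0.21 at 28 days (adjusted p = 0.0848), and its 14-day arrays overlapped those of undifferentiated cells. The 2 probe sets of Col1a2 differ in spread. One alone changed by 0.17 at 28 days (adjusted p = 0.0188) and the other by 0.25 (adjusted p = 0.326).

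The 2 chains of the type I trimer can be set against each other within an array. The difference of the centred values, Col1a1 minus Col1a2, averaged -0.04 at 14 days and -0.23 at 28 days, against 0.37 in undifferentiated cells (n = 3 each). The groups did not overlap, and the exact two-sided permutation p was 0.1 at both times, the smallest that 3 arrays against 3 allow. This pair was chosen after its values were seen, as 1 of 27 such chain comparisons, and the adjusted p was 0.18.

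Col3a1, which forms fibrils with type I in skin, vessels and marrow stroma, had another course. It was at 0.01, -0.06 and 0.0019 in undifferentiated cells, at -0.17, -0.19 and -0.22 after 14 days and at 0.07, 0.03 and 0.00 after 28 days. The 14-day arrays lay below all the others, while those of 28 days and undifferentiated cells overlapped. The change was -0.18 at 14 days (SE 0.04, adjusted p = 0.00551) and 0.05 at 28 days (adjusted p = 0.378), and Col3a1 was higher by 0.23 at 28 than at 14 days (adjusted p = 0.00743). Col11a1, a chain of the thin cartilage fibril that also enters type V trimers, moved the opposite way. Its arrays ran between -0.07 and 0.00 in undifferentiated cells, between 0.42 and 0.50 after 14 days and between -0.24 and 0.02 after 28 days. It rose by 0.50 at 14 days (SE 0.06, adjusted p = 0.000109). The 28-day signal changed by -0.55 against 14 days (adjusted p = 0.000631) and by -0.05 against undifferentiated cells (adjusted p = 0.589). Between 28 and 14 days only 145 of the 22180 genes had a lower log2 change than Col11a1.

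Of the 3 chains of type V, which sets the width of type I fibrils, Col5a1 and Col5a2 were lower at both times. Col5a3 changed by 0.04 at 14 days (adjusted p = 0.669) and by 0.13 at 28 days (adjusted p = 0.118). Col5a1 had changes of -0.41 at 14 days and -0.51 at 28 days (adjusted p = 2.3e-05 and 3.41e-06), and Col5a2 of -0.34 and -0.35 (adjusted p = 0.000879 and 0.000699). The change in Col5a1 came mainly from 1 of its 2 probe sets, which fell, with log2 changes of -0.69 at 14 days and -0.90 at 28 days. The other changed by -0.12 (adjusted p = 0.136) and -0.11 (adjusted p = 0.155). Col27a1, a minor fibrillar chain of cartilage, fell, with log2 changes of -0.32 at 14 days and -0.28 at 28 days (adjusted p = 0.00152 and 0.00305).

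Col2a1 makes the main collagen of cartilage. It was at -0.12, -0.06 and -0.04 in undifferentiated cells, at 0.11, 0.07 and -0.02 after 14 days and at 0.15, 0.10 and 0.00 after 28 days. All induced arrays lay above all undifferentiated ones, by a small margin. The change was 0.13 at 14 days (adjusted p = 0.0949) and 0.16 at 28 days (SE 0.05, adjusted p = 0.0339), and the call at 28 days was lost when undifferentiated replicate 1 was left out (adjusted p = 0.111) or 28-day replicate 1 (adjusted p = 0.115), and under 3 other omissions. Col11a2 and Col24a1, the remaining fibrillar chains, were called in no comparison.

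**Figure D2:**
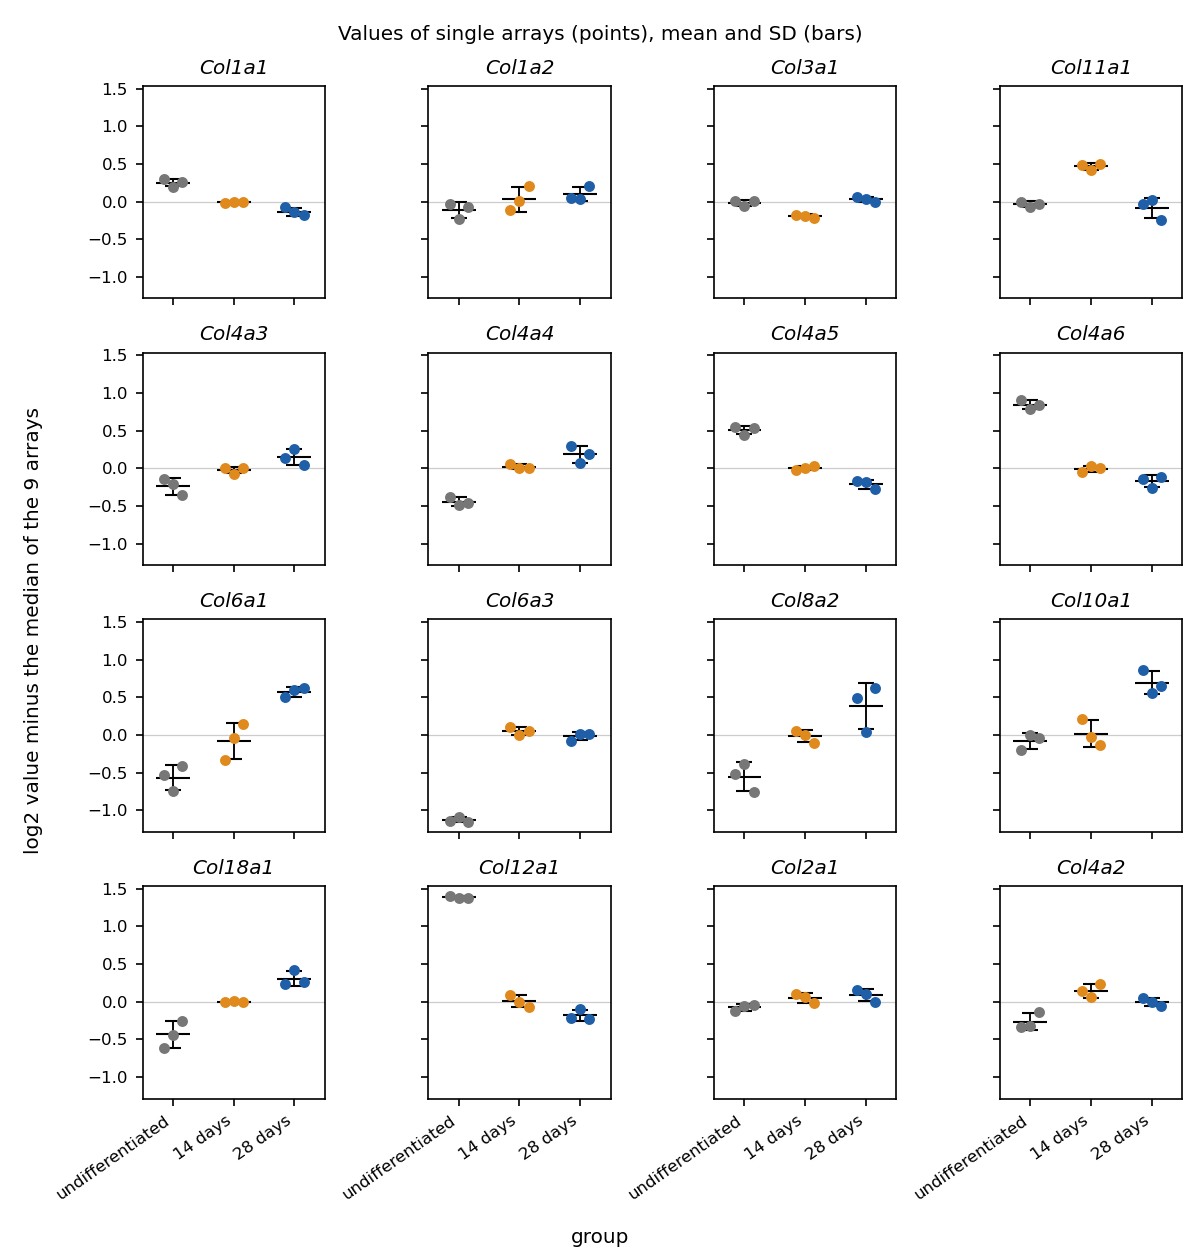
Median-centred log2 signal (y axis) of 16 collagen genes, a panel each, in undifferentiated cells and after 14 and 28 days of induction (x axis), with points for arrays and bars for the mean and SD (n = 3). Col1a1 and Col4a6 are highest in undifferentiated cells, Col11a1 is high only on the 14-day arrays and Col10a1 only on the 28-day arrays.

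Type IV collagen had members on both sides: of its 6 chains 3 were higher and 2 lower, at 14 days and again at 28 days. The genes lie in 3 pairs of neighbours, and the called genes of a pair went the same way. Col4a3 and Col4a4, which face each other on chromosome 1, were both higher at both times. Col4a5 and Col4a6, neighbours on chromosome X, were both lower at both times. Of Col4a1 and Col4a2, neighbours on chromosome 8 whose products build the trimer of most basement membranes, Col4a2 alone was called.

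Col4a6, whose chain joins alpha 5 in the basement membranes of skin and smooth muscle, had the largest change of the 6 at both times in the deposited values. Under the second quantile normalization Col4a2 was as far from 0 at 14 days (0.47, against -0.47 for Col4a6). Col4a6 was at 0.90, 0.78 and 0.84 in undifferentiated cells, at -0.05, 0.02 and 0.00 after 14 days and at -0.14, -0.26 and -0.11 after 28 days. Undifferentiated arrays were far above the induced ones, with no overlap. The log2 change was -0.85 at 14 days (SE 0.05, adjusted p = 4.02e-07) and -1.02 at 28 days (adjusted p = 8.21e-08). Its neighbour Col4a5, a chain of kidney and skin basement membranes, fell, with log2 changes of -0.50 at 14 days and -0.72 at 28 days (adjusted p = 9.49e-06 and 4.98e-07). It was also lower at 28 than at 14 days (log2 change -0.21, adjusted p = 0.0218), a call that was lost without any single 14-day array or without 28-day replicate 3 (adjusted p from 0.0555 to 0.0824).

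The sequences before the 2 start sites are shown because this pair fell together and is transcribed in opposite directions from neighbouring starts. They are RefSeq sequence of build GRCm38.p6, cut to the bases that lie outside annotated genes: chrX:141475219-141475369 on the plus strand for Col4a5 (bases -200 to -50 from its start) and chrX:141474096-141474276 on the minus strand for Col4a6 (bases -200 to -20). The capitals mark CCAAT, sought on both strands.
Col4a5: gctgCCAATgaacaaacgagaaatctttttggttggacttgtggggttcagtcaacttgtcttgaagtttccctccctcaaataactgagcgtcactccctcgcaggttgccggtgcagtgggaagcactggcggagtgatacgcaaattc
Col4a6: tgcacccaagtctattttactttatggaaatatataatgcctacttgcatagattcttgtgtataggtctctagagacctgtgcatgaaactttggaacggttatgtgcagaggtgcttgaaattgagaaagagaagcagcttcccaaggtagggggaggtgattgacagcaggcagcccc

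The Col4a5 stretch holds 1 CCAAT and the Col4a6 stretch none. Neither stretch holds the TATA box TATAAA, the GC box GGGCGG or the AP-1 motif TGACTCA on either strand. The whole 200 bases before each start that RefSeq gives were also searched, bases left out above included. There both genes hold GGGCGG before at least 1 start. Each motif was counted by itself, whether or not it overlapped another, and a match is only a run of letters in a window.

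The chromosome 1 pair, whose chains join alpha 5 in the kidney filter, rose together. Col4a4 was higher by 0.46 at 14 days and by 0.63 at 28 days (adjusted p = 9.4e-05 and 7.74e-06). Col4a3 was higher by 0.22 at 14 days (adjusted p = 0.0321) and by 0.39 at 28 days (adjusted p = 0.000947). Its call at 14 days was lost without undifferentiated replicate 2 or 3, or without 14-day replicate 1 or 3 (adjusted p from 0.0553 to 0.115).

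Col4a1 was at 0.01, -0.06 and 0.06 in undifferentiated cells, at 0.00, 0.10 and 0.05 after 14 days and at -0.03, -0.14 and -0.20 after 28 days. Its changes of 0.05 at 14 days (95% interval -0.08 to 0.17, adjusted p = 0.601) and -0.12 at 28 days (95% interval -0.25 to 0.0004, adjusted p = 0.11) were not called. Col4a2 was at -0.34, -0.32 and -0.14 in undifferentiated cells, at 0.14, 0.06 and 0.24 after 14 days and at 0.05, 0.00 and -0.06 after 28 days. All induced arrays lay above the undifferentiated ones, with changes of 0.41 at 14 days (adjusted p = 0.000599) and 0.26 at 28 days (adjusted p = 0.00931). Within arrays, Col4a1 minus Col4a2 averaged -0.10 at 14 days and -0.12 at 28 days, against 0.27 in undifferentiated cells (n = 3 each), with no overlap between induced and undifferentiated arrays. The exact two-sided permutation p was again 0.1 at each time, the smallest possible (adjusted p = 0.18 over the 27 chain comparisons), and this pair too was chosen after its values were seen.

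Among the 6 type VI chains the 3 that form the common trimer, Col6a1, Col6a2 and Col6a3, were all higher at 28 days, and none was lower at any time. The class median change was 0.20 at 14 days and 0.40 at 28 days. Col6a1 and Col6a3 were called at 14 days as well. Col6a4, Col6a5 and Col6a6, genes that lie side by side on chromosome 9 and encode chains that can replace alpha 3, were called in no comparison.

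Col6a3 was at -1.14, -1.09 and -1.15 in undifferentiated cells, at 0.10, 0.00 and 0.05 after 14 days and at -0.08, 0.01 and 0.01 after 28 days. All undifferentiated arrays lay far below the induced ones, and the 14-day and 28-day arrays overlapped. Col6a3 was 2.26-fold higher at 14 days (log2 change 1.18, SE 0.05, adjusted p = 1.27e-08) and 2.15-fold higher at 28 days (log2 change 1.11, adjusted p = 1.33e-08). Between 28 and 14 days it changed by -0.07 and was not called.

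Col6a1 rose up to 14 days and again up to 28 days. It was at -0.54, -0.75 and -0.42 in undifferentiated cells, at -0.33, -0.04 and 0.14 after 14 days and at 0.50, 0.60 and 0.63 after 28 days. The 3 groups lay one above the other with no overlap, and the 14-day arrays were the most spread. It was 1.41-fold higher at 14 days (log2 change 0.49, SE 0.12, adjusted p = 0.00678) and 2.21-fold higher at 28 days (log2 change 1.14, adjusted p = 1.57e-05). At 28 days it was 1.57-fold higher than at 14 days (log2 change 0.65, adjusted p = 0.00748). Its 2 probe sets rose by 1.03 and 1.26 at 28 days (adjusted p = 7.16e-06 and 0.000981), and at 14 days by 0.63 (adjusted p = 0.000265) in one, with 0.35 (adjusted p = 0.292) in the other. Col6a2, its neighbour on chromosome 10, changed by 0.25 at 14 days (adjusted p = 0.0816) and rose by 0.68 at 28 days (adjusted p = 0.000264). Col6a2 was higher by 0.43 at 28 than at 14 days (adjusted p = 0.0303), a call that was lost without any 1 of the 6 arrays of those groups (adjusted p from 0.0549 to 0.114).

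These chains of 1 trimer can also be compared within arrays. The difference Col6a1 minus Col6a3 averaged -0.13 at 14 days and 0.59 at 28 days, against 0.56 in undifferentiated cells (n = 3 each). The change against undifferentiated cells was -0.69 at 14 days and 0.04 at 28 days, and 28 minus 14 days gave 0.72. The 14-day arrays overlapped neither other group, with an exact two-sided permutation p of 0.1 (adjusted p = 0.18) for both. This is the smallest p that 3 arrays against 3 allow, so the test could not decide whether the timing of these chains differs. This pair was chosen after its values were seen.

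The sequences before the starts of Col6a1 and Col6a3 are shown because these chains of 1 trimer had the largest rises of the collagens at 28 days in the deposited values. They come from RefSeq, build GRCm38.p6, at chr10:76726045-76726244 on the minus strand for Col6a1 (bases -200 to -1) and at chr1:90844002-90844171 on the minus strand for Col6a3 (bases -200 to -31). Capitals mark TGACTCA, the motif of the AP-1 factors, sought on both strands.
Col6a1: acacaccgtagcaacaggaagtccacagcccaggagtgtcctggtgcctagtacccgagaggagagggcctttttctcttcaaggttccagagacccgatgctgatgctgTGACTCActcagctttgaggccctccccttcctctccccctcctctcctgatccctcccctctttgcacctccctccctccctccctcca
Col6a3: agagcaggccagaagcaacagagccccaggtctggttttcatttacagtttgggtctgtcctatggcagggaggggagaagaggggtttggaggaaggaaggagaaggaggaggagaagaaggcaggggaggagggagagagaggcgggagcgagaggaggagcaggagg

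The TGACTCA in Col6a1 was the only one among the collagen promoters. Promoters were at hand for 35 of the 44 genes, and 2.86% of these genes held it in the 200 bases before a start, beside 3.66% of all 32851 promoters. The GC box was found in 60% of the collagen genes, beside 31.0% of all promoters. CCAAT was found in 28.6% of the collagen genes, beside 29.3% of all promoters, and TATAAA in 11.4%, beside 9.96%. Members with several promoters counted once, while all promoters were counted singly, and no share was tested.

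The 3 network-forming chains were higher at 28 days, and 2 of them at 14 days. The class median change was 0.45 at 14 days and 0.77 at 28 days. Col8a1 and Col8a2 build the hexagonal lattice of type VIII collagen, known from vessel walls and the cornea. Col8a1 was higher by 0.45 at 14 days and by 0.50 at 28 days (adjusted p = 1.03e-05 and 3.81e-06). Col8a2 was higher by 0.54 at 14 days (SE 0.14, adjusted p = 0.0116) and by 0.94 at 28 days (adjusted p = 0.000282), and its call at 14 days was lost without undifferentiated replicate 3 (adjusted p = 0.0511). Its 28-day arrays, between 0.04 and 0.63, had the largest SD of any collagen in any group, 0.306.

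Col10a1, the type X chain of hypertrophic cartilage, moved between 14 and 28 days. It was at -0.20, 0.00 and -0.04 in undifferentiated cells, at 0.21, -0.03 and -0.14 after 14 days and at 0.86, 0.56 and 0.65 after 28 days. The first 2 groups overlapped, and the 28-day arrays lay above both. At 14 days the change was 0.09 (adjusted p = 0.562). At 28 days Col10a1 was 1.70-fold higher than in undifferentiated cells (log2 change 0.77, SE 0.10, adjusted p = 0.000113) and 1.60-fold higher than at 14 days (log2 change 0.68, adjusted p = 0.00286). Between 28 and 14 days only 49 of the 22180 genes had a higher log2 change, and 57 had a higher one than Col6a1.

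Of 14 other chondrocyte markers measured, 3 were higher at 14 days (21.4%, beside 35.7% of all genes called) and 4 at 28 days (28.6%, beside 39.9%), with none lower. Counting both directions, this list too was called no more often than all genes. Called higher were 18.2% of all genes at 14 days and 20.4% at 28 days, smaller shares than in the list, and the difference was not tested. The 3 Sox factors of cartilage were among the markers called at 28 days, with changes of 0.80 for Sox9, 0.48 for Sox5 and 0.28 for Sox6 (adjusted p = 2.43e-06, 2.06e-05 and 0.00305). Ihh, the hedgehog signal of cartilage about to become hypertrophic, changed by 0.11 (adjusted p = 0.195), and Acan, Comp, Matn1, Matn3 and Hapln1 were not called. The mean centred level of the 14 ran from -0.10 to -0.08 on the undifferentiated arrays, from -0.0010 to 0.07 on the 14-day arrays and from 0.03 to 0.10 on the 28-day arrays.

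Of the 9 fibril-associated chains only Col12a1 and Col16a1 were called, in opposite directions, and the class median change was -0.0086 at 14 days and 0.02 at 28 days. Col12a1, the chain of type XII collagen on type I fibrils of tendon, ligament and periosteum, had the largest change of any collagen at both times in the deposited values. Under the second quantile normalization Col11a1 changed more at 14 days (1.12, against -0.71 for Col12a1), and Col6a1 and Col10a1 changed more at 28 days (1.17 and 1.08, against -0.95 for Col12a1). In the deposited values it was at 1.41, 1.38 and 1.38 in undifferentiated cells, at 0.09, 0.00 and -0.07 after 14 days and at -0.22, -0.10 and -0.23 after 28 days. The gap between undifferentiated and induced arrays was many times the spread within groups. Col12a1 fell to 0.384 times the undifferentiated signal at 14 days (log2 change -1.38, SE 0.05, adjusted p = 1.3e-08) and to 0.337 times at 28 days (log2 change -1.57, adjusted p = 3.41e-09). Col16a1 was higher by 0.31 at 14 days and by 0.36 at 28 days (adjusted p = 0.0149 and 0.00558), and its call at 14 days was lost without 14-day replicate 3 (adjusted p = 0.053). The type IX chains Col9a1, Col9a2 and Col9a3, which cover cartilage fibrils, were called in no comparison, nor were Col14a1, Col19a1, Col20a1 and Col22a1.

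The multiplexins, basement membrane collagens with broken helices, went in opposite directions at 28 days. Col18a1, the source of endostatin, was higher by 0.43 at 14 days (adjusted p = 0.00172) and by 0.74 at 28 days (adjusted p = 3.12e-05). Col15a1 changed by -0.23 at 28 days (adjusted p = 0.014), a call that was lost without undifferentiated replicate 2 or 3 or 28-day replicate 1 (adjusted p from 0.051 to 0.0551). Its 14-day arrays hold 1 identical value, so their spread is understated, and Col7a1 has the same tie.

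None of the transmembrane chains Col13a1, Col17a1, Col23a1 and Col25a1, the anchoring fibril chain Col7a1 of skin, or Col26a1 and Col28a1 was called. Altogether, 22 of the 44 collagens were called in no comparison, with array values between -0.38 and 0.29. Their log2 changes ran from -0.12 (Col28a1) to 0.15 (Col6a5) at 14 days and from -0.20 (Col6a4) to 0.21 (Col1a2) at 28 days. Some changes of this size passed the test in other collagens, as for Col3a1 at 14 days. Whether these genes were expressed at all cannot be read from centred values.

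**Figure D3:**
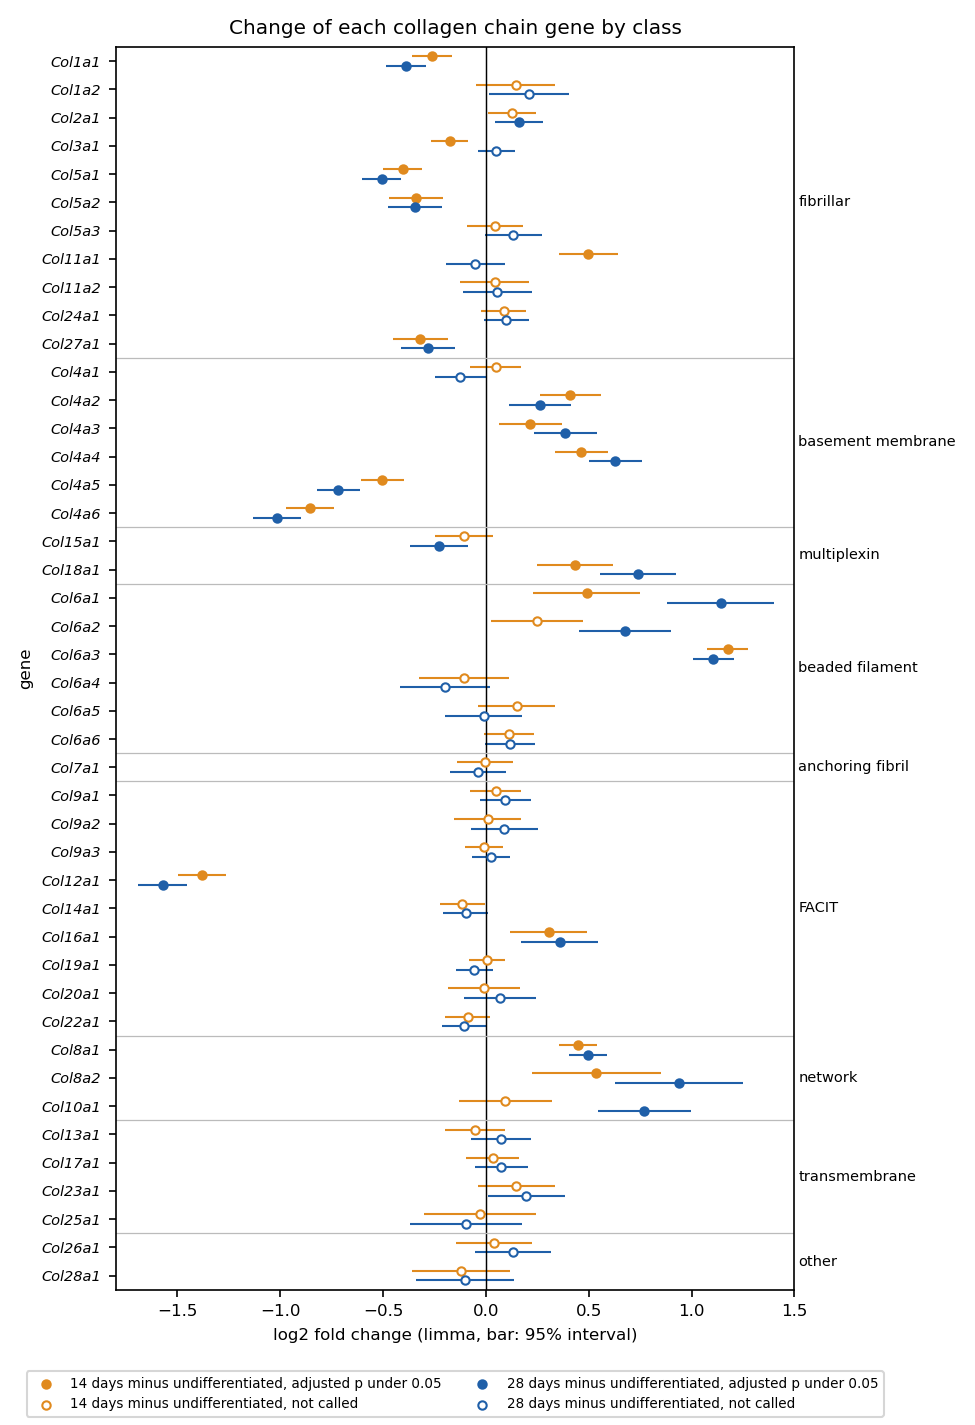
Log2 change (x axis, with the 95% interval from limma) of each collagen gene (y axis, grouped by class) at 14 days and at 28 days against undifferentiated cells. Col12a1 lies farthest to the left at both times, Col6a3 farthest to the right at 14 days and Col6a1 at 28 days, and most fibril-associated and all transmembrane chains have intervals near 0.

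Of the 20 collagens called at 28 days, 16 were also called at 14 days, in the same direction, with the undifferentiated arrays shared between the comparisons. Col1a1, Col5a1, Col5a2, Col27a1, Col4a5, Col4a6 and Col12a1 were lower at both times. Col4a2, Col4a3, Col4a4, Col18a1, Col6a1, Col6a3, Col16a1, Col8a1 and Col8a2 were higher at both. Between 28 and 14 days the 4 collagens higher were Col3a1, Col6a1, Col6a2 and Col10a1, and the 2 lower were Col4a5 and Col11a1.

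Genes that modify, fold, trim and cross-link collagen chains moved in both directions as well. Of 34 measured, 17 were higher and 9 lower at 14 days, or 76.5% of them, beside 35.7% of all genes. At 28 days 14 were higher and 13 lower, or 79.4%, beside 39.9% of all genes. These lists were chosen with earlier results of these data known, so the shares are no test of the lists. Among the enzymes of hydroxylation and glycosylation, P4ha3, a prolyl 4-hydroxylase subunit, fell, with log2 changes of -1.59 at 14 days and -1.85 at 28 days (adjusted p = 9.94e-08 and 2.36e-08). Plod1, a lysyl hydroxylase, rose by 1.15 and 1.23 (adjusted p = 2.49e-08 and 1.09e-08). The prolyl 3-hydroxylases P3h2 and P3h3 rose at both times, P3h2 by 0.76 and 0.48 and P3h3 by 0.46 and 0.74. P4ha1, the main prolyl 4-hydroxylase subunit, had the smaller changes of -0.22 and -0.24 (adjusted p = 0.00234 and 0.00109).

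Folding and export genes went both ways. Tmem38b, a channel of the endoplasmic reticulum, rose by 1.22 at 14 days and 1.12 at 28 days, and Fkbp14, a prolyl isomerase, by 0.49 and 0.39. Serpinh1, the collagen chaperone HSP47, fell, with log2 changes of -0.36 at 14 days and -0.35 at 28 days (adjusted p = 4.87e-05 and 5.11e-05), as Col1a1 did. Creb3l1, a transcription factor of secretory cells that acts on Col1a1 in bone, fell, with log2 changes of -0.88 and -0.75 (adjusted p = 1.27e-06 and 3.46e-06).

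For the removal of propeptides, Bmp1, the C-proteinase, rose by 0.96 at both times (adjusted p = 7.43e-08 and 5.96e-08). Its enhancers moved the other way: Pcolce fell, with log2 changes of -0.32 and -0.28, and Pcolce2 fell, with log2 changes of -0.22 at 14 days and -1.04 at 28 days (adjusted p = 0.0161 and 1.99e-07). Of the cross-linking lysyl oxidases, Loxl1 rose by 0.67 and 0.76 and Loxl4 fell, with log2 changes of -0.50 and -0.60. Lox itself, the enzyme best known for fibrillar collagen, changed by -0.10 at 14 days (adjusted p = 0.123) and -0.17 at 28 days (adjusted p = 0.00844).

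Of the 7 collagen receptors, 2 were higher and 3 lower at 14 days (71.4%, beside 35.7% of all genes), and 3 were higher and 4 lower at 28 days (100%, beside 39.9%). The receptor list too was chosen with earlier results known, so these shares are no test of it. Mrc2, an endocytic receptor for collagen fragments, rose by 1.24 at 14 days and 1.34 at 28 days (adjusted p = 2.01e-08 and 8.12e-09), and Itga11, the integrin chain for fibrillar collagen on stromal cells, rose by 1.05 and 0.72. Ddr2, the receptor kinase for fibrillar collagen, fell, with log2 changes of -0.84 and -0.87, and Itga1 fell, with log2 changes of -0.71 and -0.72. Itga2 changed by -0.07 at 14 days (adjusted p = 0.602) and -1.03 at 28 days (adjusted p = 3.92e-06), and 28 against 14 days gave -0.96 (adjusted p = 0.000132).

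**Figure D4:**
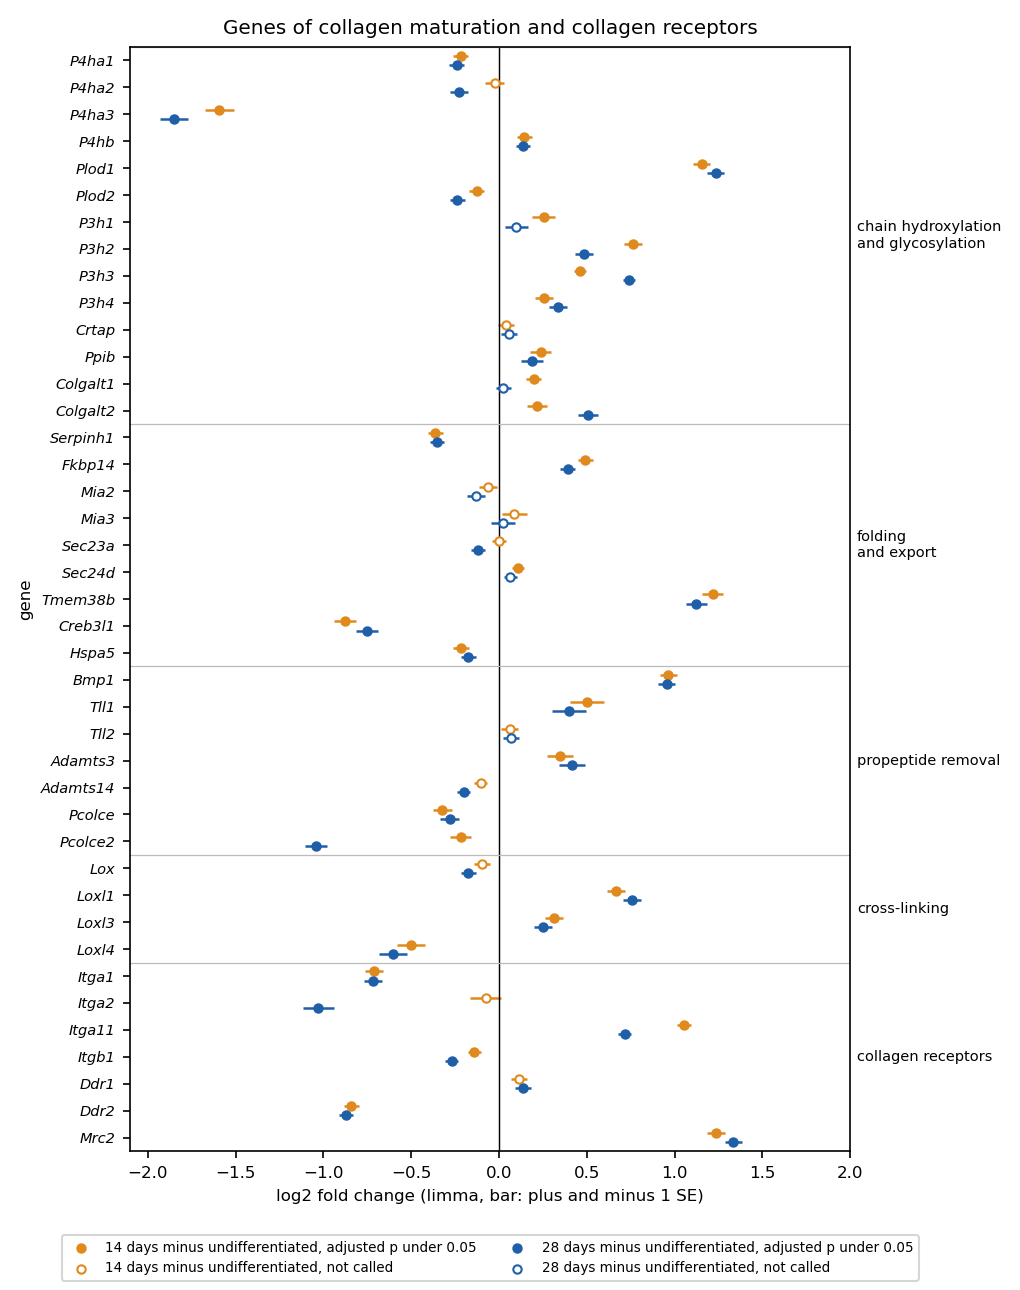
Log2 change (x axis, bars for 1 SE) of 41 genes that modify, fold, trim, cross-link or bind collagen (y axis, grouped by role) at 14 days and at 28 days against undifferentiated cells. Plod1, Tmem38b, Bmp1 and Mrc2 lie to the right and P4ha3, Creb3l1 and Ddr2 to the left at both times, while Itga2 and Pcolce2 lie far left at 28 days alone.

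Some markers of other cells were also called, although the line is 1 clone. Of 12 endothelial markers 6 were higher at 14 days (50%, beside 35.7% of all genes called) and 7 at 28 days (58.3%, beside 39.9%). Of 12 macrophage markers 3 were higher at each time (25%) and of 9 epithelial markers 3 (33.3%). These shares lay below those of all genes called in either direction. They lay above those of all genes called higher (18.2% at 14 days and 20.4% at 28 days), and no share was tested. None of these 3 lists had a member called lower. Of 11 stromal markers 4 were higher and 2 lower at each time (54.5%). The mean centred level of the endothelial list ran from 0.01 to 0.09 at 14 days and from 0.01 to 0.02 at 28 days, against -0.47 to -0.39 in undifferentiated cells. For macrophage markers it ran from -0.04 to 0.02 at 14 days and from 0.05 to 0.10 at 28 days, against -0.43 to -0.33. The epithelial list ran from 0.0022 to 0.03 at 14 days and from 0.12 to 0.15 at 28 days, against -0.33 to -0.26. These list means lean on a few members that stood low in undifferentiated cells. The group mean there was -2.16 for Krt14, -2.57 for Cd14, -1.81 for Csf1r and -1.87 for Kdr. For other members of the same lists it lay near 0, as for Epcam (0.02), Itgam (0.02) and Vwf (-0.03). Of collagens known from vessel walls, Col4a2, Col8a1, Col8a2 and Col18a1 rose at both times and Col4a1 was not called. Col3a1 was lower at 14 days and Col15a1 at 28 days. These collagens were not a list set in advance. The part of other cells in the collagen changes was not tested. Which markers were near background cannot be read from centred values.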

How the data were processed

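Total RNA from 9 samples of the MSC2 line was measured on expression arrays. The deposited log2 values were made by the authors with RMA, per the submitters' processing notes. The RMA software, its version and its annotation, and the step that centred the values, are not stated in the labels or files at hand. Base 2 was taken from the usual output of RMA. Over the 9 arrays the median of all 33794 probe sets is 0, so the deposited values keep no level. On each array 15.2% to 28.1% of the values are exactly 0.

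Probe sets were named through the platform annotation, which can be old. It pairs 23521 with 1 gene, 1814 with several and 8459 with none, and only the first were used. Several probe sets of a gene were averaged, which gave 22180 genes. All 44 collagen genes matched a RefSeq gene by Entrez number, with 0 symbols changed. Promoter sequences and motifs came from RefSeq, build GRCm38.p6.

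Groups were taken from the labels. The model was fitted in limma 3.58.1 (R 4.3.3) to all 9 arrays, with a mean for each group and variances moderated across genes, on 6 residual and 3.81 prior degrees of freedom. P-values were two-sided and adjusted by the Benjamini-Hochberg method over 22180 genes in each comparison, with 0.05 as the threshold. For arrays, their number limits the precision. Chain differences were compared by exact permutation with scipy 1.17.1. The fit was tested on simulated data for 28 days against undifferentiated cells over 22180 genes. Of 50 genes changed at each size, it called 70% at 1.25-fold, 88% at 1.5-fold, 98% at 2-fold and 100% at 4-fold, and 3.78% of its 185 calls were false. Far fewer genes were changed in the simulation than were called in the data (39.9% at 28 days), so these shares need not hold for the data.

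Every collagen gene could be named. Values on each array were set out for called collagens that changed at least 2-fold in a comparison and, in any case, for Col1a1, Col1a2, Col2a1, Col3a1, Col4a1, Col4a2 and Col10a1. From the lists of maturation genes, receptors and markers of other cells, up to 4 called members with the largest changes were named, with others added after their values were seen. The collagens and these lists were chosen with earlier results of these data known. Alternatives covered normalization, probe set choice, filters, the variance model, thresholds, the replicate number as a block and leaving out each array. The alternative with each probe set of Col1a2, Col5a1 and Col6a1 alone was chosen after seeing the data.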

Additional observations from a re-analysis of the deposited data

Results flagged for a closer look

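One probe set, 17547507, is paired with several genes that include a collagen and was left out of all comparisons, so it names no gene here. Its signal was higher after induction. It was at 0.10, 0.14 and -0.0046 at 14 days and at 0.00, 0.27 and 0.05 at 28 days, against -0.37, -0.11 and -0.47 in undifferentiated cells. The mean was higher by 0.40 at 14 days and by 0.43 at 28 days than in undifferentiated cells on the log2 scale. It was flagged because all induced arrays lay above the undifferentiated ones, so the lack of overlap was the rule of choice. Of all genes, 44.8% at 14 days and 46.6% at 28 days had no overlap with undifferentiated cells, in either direction. No collagen gene had an array that was tested for standing apart, since groups of 3 are too small for it.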

How the results depend on the processing

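The number of collagens called moved by over 1.5 times under 1 alternative: limma's test against a 1.5-fold change called 3 at 14 days (Col12a1, Col4a6 and Col6a3), 4 at 28 days (those and Col6a1) and 0 between 28 and 14 days, where 0 also had an unadjusted p under 0.05. This follows from the size the test asks for. Leaving out each array in turn gave 16 to 19 called at 14 days, 19 to 22 at 28 days, 4 to 7 between 28 and 14 days and 20 to 22 in the F test. The 4 were seen without any single 14-day array or without 28-day replicate 3, and rest on Col4a5 and Col6a2. Quantile normalization again gave 13 called at 14 days (5 higher and 8 lower, against 10 and 8 in the main fit), 17 at 28 days and 7 between 28 and 14 days, with 5818, 6322 and 2123 of all genes called in place of 7920, 8845 and 1639, and the cause was not tested. Adjusted p under 0.01 gave 15, 18 and 4. Calls also appeared for some collagens not called above, for example Col6a2 at 14 days without undifferentiated replicate 3 (adjusted p = 0.00243) and Col18a1 between 28 and 14 days under quantile normalization (adjusted p = 0.0233). No called collagen changed direction under any alternative run. The replicate numbers showed no shared effect across groups, and the arrays were treated as unpaired. The 9 same-number correlations of the deviations from the group means ran from -0.14 to 0.07. With the replicate block 19, 21 and 6 were called, and 21 in the F test. Levels are missing, so which collagens lay near background cannot be read.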
